A study of Mus musculus with 12 samples.

Results

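The macrophage lineage transcription factors PU.1 (Spi1), C/EBPα (Cebpa), C/EBPβ (Cebpb), C/EBPδ (Cebpd), c-MAF (Maf), RUNX1 (Runx1), and MEF2C (Mef2c) were followed together with the receptors CSF1R (Csf1r) and F4/80 (Adgre1). These 9 genes were chosen by symbol from the 43626 genes of the count tables, and all 9 had enough counts to be tested. BMDMs are mouse macrophages differentiated from bone marrow in a dish. They were treated for 6 hours, and polyadenylated RNA was sequenced with a stranded kit. Of the 12 libraries, 3 were vehicle controls with PBS, 3 were treated with 3′SL at 100 μg/mL, 3 with LPS at 10 ng/mL, and 3 with LPS at 10 ng/mL together with 3′SL at 100 μg/mL. The labels name the sugar only as HMO. 3′SL is a human milk oligosaccharide made of lactose and sialic acid, and LPS is the bacterial outer membrane component that activates TLR4. The extraction text of the labels describes BMDMs incubated with these agents, whereas their treatment field describes injections of mice, so doses and hours were taken from the results text and legends of the study. The labels give no strain, sex, or age for these cells, and BMDMs are a cultured model that lacks the signals of a tissue. The labels name no separate mice or cultures, so the p-values measure only the spread between these libraries.

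PU.1 is the ETS factor that macrophage development depends on, and it binds enhancers of myeloid genes beside C/EBP factors and RUNX1. C/EBPα acts early in myeloid commitment, whereas C/EBPβ and C/EBPδ are best known for induction in inflammation and acute phase responses. CSF1R is the receptor for the growth factor that keeps these cultures alive, and F4/80, an adhesion G protein–coupled receptor, is the classical surface marker of mouse macrophages.

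Between 20411741 and 26851890 reads were counted on genes per library, and 14308 genes were tested. Levels are in CPM, for which library sizes were first scaled with TMM factors in edgeR. A change was called when it was at least 1.5-fold and its adjusted p (Benjamini-Hochberg) was under 0.05. The libraries carried the macrophage markers Cd68 at 1301 to 1689 CPM and Lyz2 at 12155 to 15730 CPM, whereas the T cell marker Cd3e was at 0 in all libraries. The 10 tested LPS response genes all rose with LPS (median log2 fold change 8.97). The libraries fell into 3 sets, each a run of 4 consecutive library numbers with 1 library per condition, and the summed level of the fibroblast and stromal markers was 1289 to 1470 CPM in set 1, 123 to 213 in set 2, and 227 to 341 in set 3. The labels do not describe these sets. They were found in the data, and values below are listed in the order of sets 1, 2, and 3, which are also called replicates 1, 2, and 3. In bulk RNA, fewer cells of a type and less RNA per cell cannot be told apart.

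LPS changed the makeup of these lineage factors, whereas Csf1r did not pass the test. With edgeR's quasi-likelihood test, 7 of the 9 genes were called for LPS against PBS, 5 higher (Spi1, Cebpb, Cebpd, Maf, Adgre1) and 2 lower (Cebpa, Mef2c). Of all genes tested, 38.5% were called, 18.3% higher and 20.2% lower. The median log2 fold change was 0.90 over the 9 genes and −0.061 over all genes, and with library sizes taken as total counts it was 0.22 and −0.71. The libraries of the 2 conditions did not overlap for 7 of the 9 genes, as for 58.4% of all genes. The changes ran from a 12.7-fold drop of Cebpa to a 6.88-fold rise of Cebpd. The plot of levels per library shows all 9 genes over the 4 conditions.

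**Figure D1:**
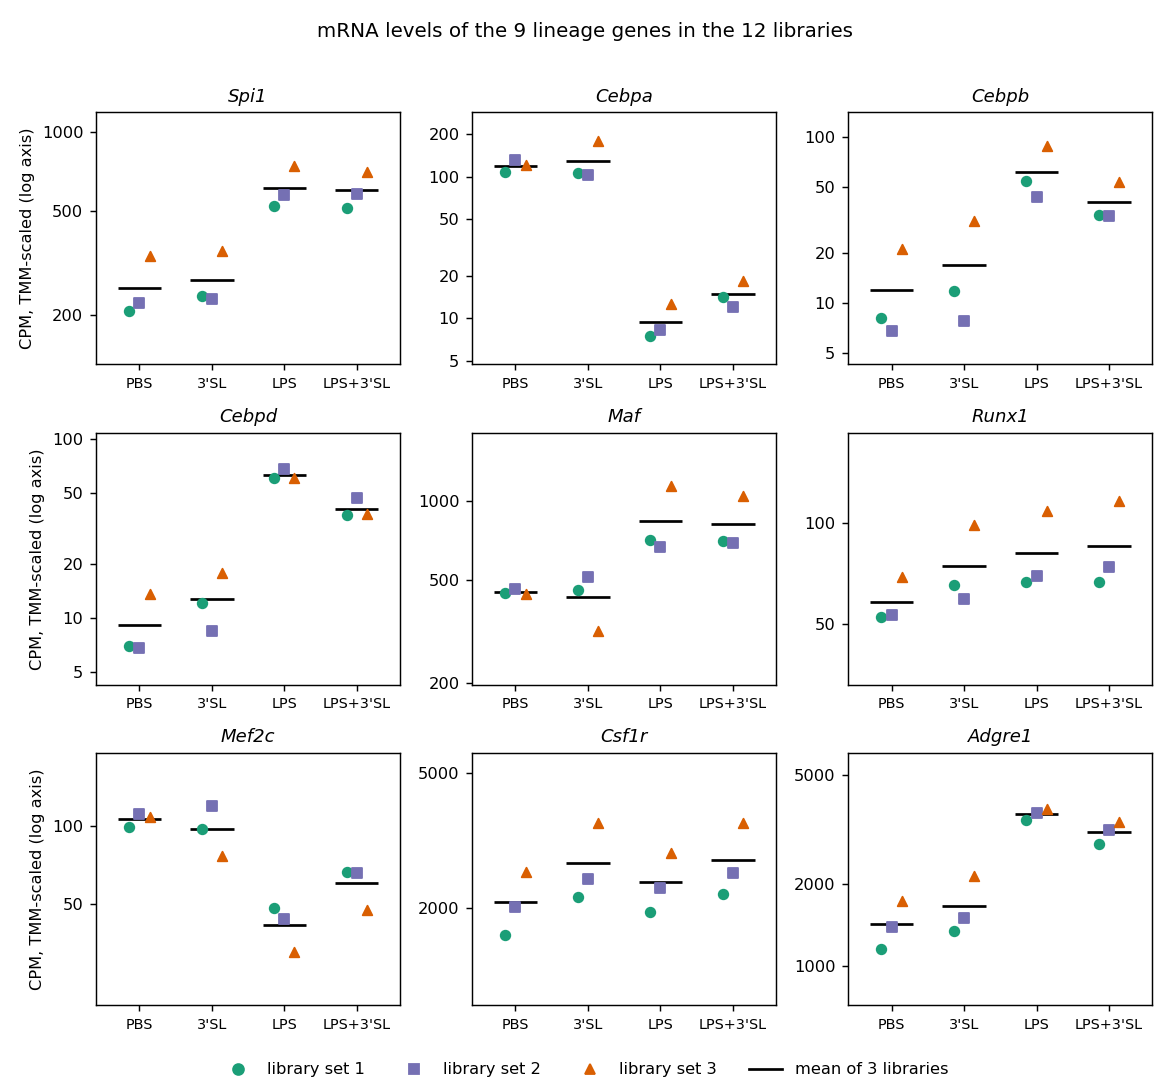
CPM on TMM-scaled library sizes (log axis) of the 9 genes in each of the 12 libraries, with 1 point per library, coloured by set, and a line at the mean of each condition. Cebpa and Mef2c sit lower with LPS than with PBS, Spi1, Cebpb, Cebpd, Maf, and Adgre1 sit higher, and the libraries of Runx1 and Csf1r overlap between PBS and LPS.

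Spi1 (chr2:91082390-91115756, plus strand, GRCm38) lay at 208, 222, and 336 CPM with PBS and at 524, 573, and 742 CPM with LPS. Every LPS library was above every PBS library. The rise was 2.40-fold, a log2 fold change of 1.26 (SE 0.24, adjusted p = 0.00128, edgeR), and it was 1.33, 1.37, and 1.14 within the sets. Genes that are textbook targets of PU.1 and C/EBP factors, such as subunits of the phagocyte NADPH oxidase, form a list of 18 tested genes. Of these, 10 rose and 1 fell (4 and 2 with total counts), with a median of 0.74 on the log2 scale. Cybb, the catalytic subunit of the oxidase, rose by 2.64 on the log2 scale, the kinase Lyn by 2.04, and the oxidase subunit Ncf4 by 1.31. For Lyn, 18.3% of all stretches of 50 nucleotides also occur in other genes, so its counts are less certain.

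The 3 C/EBP genes moved in opposite directions, Cebpa down and its relatives up. The promoters of Cebpa and Cebpb are shown because these genes moved in opposite directions and both have a window in the table used. RefSeq windows on GRCm38.p6 run from 250 bases before the annotated start to 30 bases after it (Cebpa chr7:35119043-35119322, Cebpb chr2:167688665-167688944, both plus strand). Capitals mark every match, on either strand, to the letters TATAAA of the element that TBP binds, GGGCGG of the GC box, and TGACG of the cAMP response element.
Cebpa: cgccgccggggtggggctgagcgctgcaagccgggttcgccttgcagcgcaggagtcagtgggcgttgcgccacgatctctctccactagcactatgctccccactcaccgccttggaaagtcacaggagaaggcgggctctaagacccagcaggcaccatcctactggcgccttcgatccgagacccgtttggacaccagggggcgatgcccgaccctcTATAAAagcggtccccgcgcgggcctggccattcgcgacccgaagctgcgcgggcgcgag
Cebpb: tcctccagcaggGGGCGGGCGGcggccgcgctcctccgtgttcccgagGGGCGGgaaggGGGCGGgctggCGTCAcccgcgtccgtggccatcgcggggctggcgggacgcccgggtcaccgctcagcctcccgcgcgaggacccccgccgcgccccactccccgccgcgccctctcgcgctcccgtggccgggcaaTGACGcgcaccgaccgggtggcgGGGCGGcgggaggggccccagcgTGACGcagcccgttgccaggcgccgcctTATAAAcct
Cebpa had 1 TATAAA match that began 30 bases before the start, and no GGGCGG or TGACG match. Cebpb had 5 GGGCGG matches, the first pair overlapping, 3 TGACG matches, and a TATAAA match within the transcribed bases. GC content was 67.1% for Cebpa and 79.6% for Cebpb, against a median of 52.5% over 32841 promoter windows. Of those windows, 13.1% held TATAAA, 34.7% GGGCGG, and 19.9% TGACG. The letters GAGGAA of a PU.1 core (26.0% of windows) and TTGCNNAA of a C/EBP core (10.4%) were in neither window on either strand. Of the 9 genes, 4 had a window (Cebpa, Cebpb, Runx1, Mef2c). A match is a description of letters and not a bound site.

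Cebpa (chr7:35119293-35121928, plus strand) lay at 107, 131, and 119.8 CPM with PBS and at 7.57, 8.23, and 12.6 CPM with LPS. The lowest PBS library was far above the highest LPS library. The log2 fold change was −3.66 (SE 0.28, adjusted p = 3.20e-06, edgeR) and −3.82, −3.99, and −3.25 within the sets. The LPS libraries still held 155 to 205 counts of Cebpa, so the low level was well measured.

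Cebpb (chr2:167688915-167690418, plus strand), a gene of 1 exon, lay at 8.10, 6.81, and 21.1 CPM with PBS and at 54.3, 43.2, and 87.4 CPM with LPS. The groups did not overlap, although set 3 stood above the other sets in all 4 conditions. The rise was 5.14-fold (log2 2.36, SE 0.56, adjusted p = 0.00555, edgeR; within sets 2.75, 2.67, and 2.05). Without PBS replicate 3, whose level was the highest of the PBS libraries, the log2 fold change was 3.05. Without LPS replicate 3, the highest of the LPS libraries, it was 2.02. Cebpd (chr16:15887286-15891031, plus strand) lay at 7.01, 6.77, and 13.6 CPM with PBS and at 60.3, 67.3, and 60.7 CPM with LPS, again without overlap. Its rise was 6.88-fold (log2 2.78, SE 0.31, adjusted p = 3.82e-05, edgeR). Whether counting used the strand is not given in the sources used here. Exon bases of Cebpb overlap Tmem189 over 312 bases and those of Cebpd overlap Spidr over 562 bases, both on the other strand, so reads there cannot be assigned with certainty.

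Shares of the summed level of Cebpa, Cebpb, and Cebpd were taken per kilobase of exon, the scale on which levels of different genes can be compared. Cebpa made up 84.9, 88.7, and 72.0% of this sum with PBS and 5.21, 6.27, and 6.04% with LPS. Other C/EBP genes are not in the sum, such as Cebpg (mean 12.3 CPM per kilobase with PBS, 6.95 with LPS) and Cebpe (1.19 and 1.22). The mean (SD, n = 3) of the Cebpa share was 81.9 ± 8.73% for PBS, 78.3 ± 5.65% for 3′SL, 5.84 ± 0.553% for LPS, and 13.0 ± 1.22% for the combination. Cebpb took 65.6 ± 7.90% and Cebpd 28.6 ± 7.80% with LPS. The summed level itself was 55.7 ± 7.59 CPM per kilobase with PBS and 61.3 ± 15.6 with LPS, with overlapping libraries. A ratio of counts within a library needs no scaling between libraries. Counts of Cebpb per count of Cebpa averaged 0.101 for PBS and 0.121 for 3′SL. They averaged 6.46 ± 1.05 for LPS and 2.69 ± 0.253 for the combination (SD, n = 3). The ratio was 7.17, 5.25, and 6.94 in the LPS libraries and 2.41, 2.76, and 2.90 in the LPS + 3′SL libraries, so these groups did not overlap. Taken alone, the levels of Cebpa and of Cebpb each overlapped between these conditions. The share of all gene pairs whose ratio does not overlap is not given. The shares and ratios are descriptions and were not tested.

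**Figure D2:**
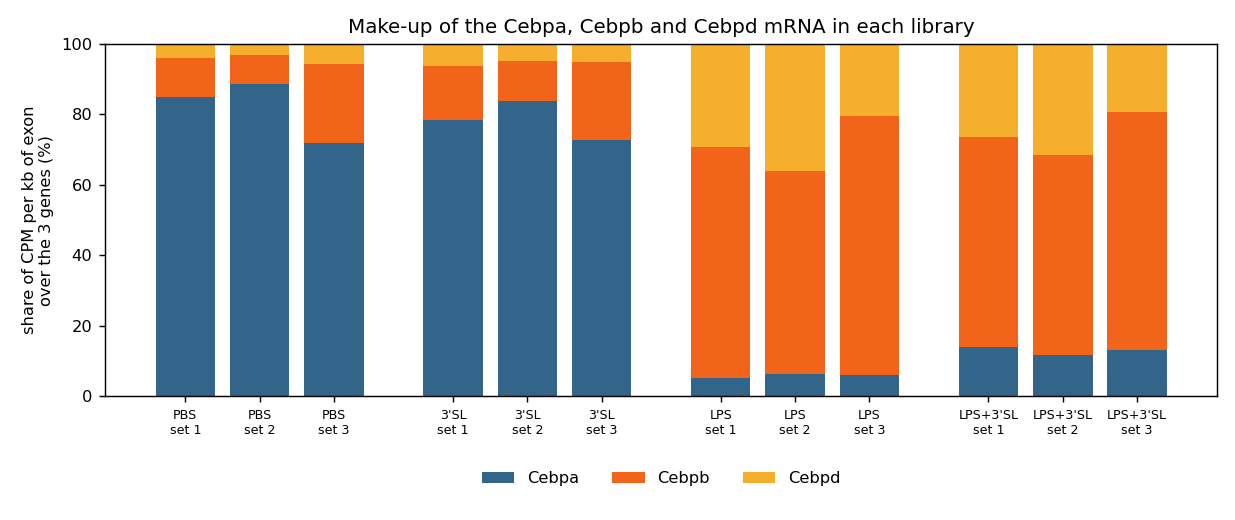
Share (percent, axis from 0) of Cebpa, Cebpb, and Cebpd in their summed CPM per kilobase of exon in each of the 12 libraries. Cebpa holds 72.0% or more of the sum in the PBS and 3′SL libraries, at most 6.27% in the LPS libraries, and 11.7 to 14.1% in those of the combination.

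Maf (chr8:115682942-115707794, minus strand), a basic leucine zipper factor of mature macrophages, lay at 444, 461, and 441 CPM with PBS and at 708, 668, and 1139 CPM with LPS. All LPS libraries were higher, and the third stood far above the other two. The rise was 1.87-fold (log2 0.90, SE 0.25, adjusted p = 0.0119, edgeR), with 0.67, 0.53, and 1.37 within the sets. Without LPS replicate 3 the log2 fold change was 0.62 and Maf was no longer called. When libraries were scaled by total counts it was 0.22 (adjusted p = 0.376, edgeR), again not called.

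Runx1 (chr16:92601466-92826149, minus strand), which PU.1 works beside in myeloid cells, lay at 52.3, 53.0, and 68.9 CPM with PBS and at 66.8, 69.5, and 109 CPM with LPS. The groups overlapped. Its log2 fold change of 0.49 (SE 0.27, adjusted p = 0.167, edgeR) had a 95% interval from −0.11 to 1.09, which holds both no change and a change of over 2-fold. In the fit with the sets as a block the adjusted p was 9.21e-04 (edgeR), but the change stayed under 1.5-fold. Mef2c (chr13:83504034-83667080, plus strand), a MADS box factor, lay at 99.1, 111, and 108 CPM with PBS and at 48.2, 43.9, and 32.8 CPM with LPS. No libraries overlapped, and Mef2c fell 2.54-fold (log2 −1.35, SE 0.19, adjusted p = 2.17e-04, edgeR; within sets −1.04, −1.33, and −1.72).

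Csf1r (chr18:61100598-61132149, plus strand) lay at 1668, 2022, and 2565 CPM with PBS and at 1957, 2293, and 2900 CPM with LPS. The ranges overlapped over most of their length. The log2 fold change was 0.19 (SE 0.26, adjusted p = 0.585, edgeR), with a 95% interval from −0.38 to 0.76, and 0.23, 0.18, and 0.18 within the sets. In the fit with the sets as a block the adjusted p was 0.0379 (edgeR), with a change under 1.5-fold. Adgre1 (chr17:57358691-57483527, plus strand) lay at 1152, 1388, and 1731 CPM with PBS and at 3411, 3632, and 3760 CPM with LPS. Every LPS library was above every PBS library, and Adgre1 rose 2.53-fold (log2 1.34, SE 0.20, adjusted p = 3.20e-04, edgeR). Exons of Csf1r overlap Hmgxb3 over 873 bases and those of Maf overlap Gm15655 over 440 bases on the other strand.

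**Figure D3:**
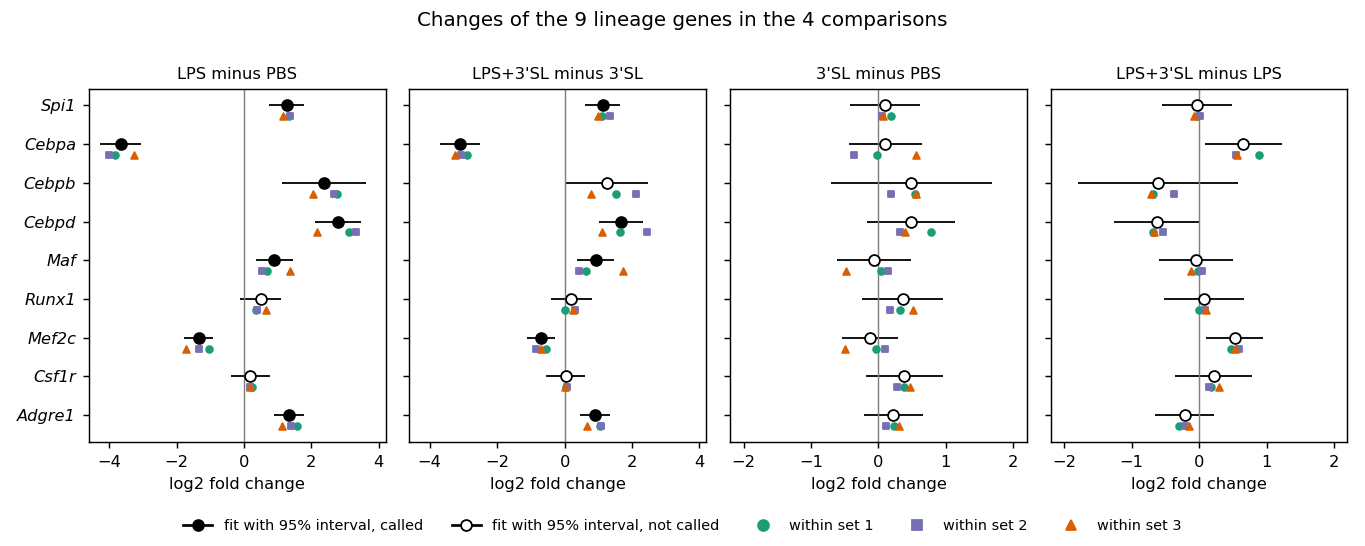
Log2 fold changes of the 9 genes in 4 comparisons (edgeR, TMM factors) with 95% confidence intervals, filled where called, above the changes within each of the 3 sets. For LPS against PBS the intervals of Runx1 and Csf1r include 0, and both change sign with total counts.

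The scaling of the libraries mattered for the size of each change. Under total counts, where the median over all genes shifted as given above, 57.3% of all genes were called for LPS against PBS, 1535 higher and 6657 lower (2613 and 2889 with TMM factors). The 9 genes then had log2 fold changes of 0.60 (Spi1), −4.34 (Cebpa), 1.69 (Cebpb), 2.14 (Cebpd), 0.22 (Maf), −0.19 (Runx1), −1.98 (Mef2c), −0.47 (Csf1r), and 0.69 (Adgre1). Of these, 6 were called, and Runx1 and Csf1r changed sign. Relative to the median of all genes under total counts, the values were 1.31, −3.63, 2.40, 2.85, 0.93, 0.52, −1.27, 0.24, and 1.40 in the same order.

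**Figure D4:**
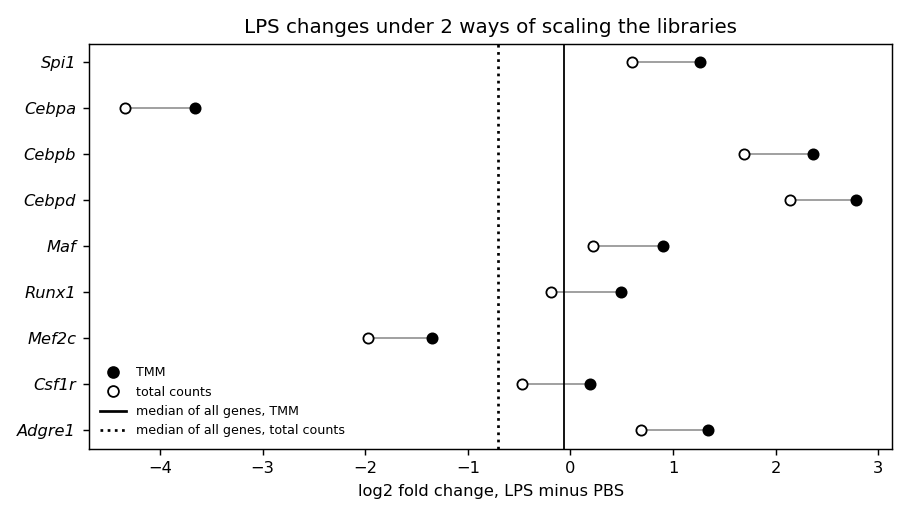
Log2 fold changes of the 9 genes for LPS against PBS under TMM factors (filled points) and total counts (open points), with vertical lines at the median of all genes under each. All 9 genes sit lower under total counts, where Runx1 (−0.19) and Csf1r (−0.47) change sign and Maf (0.22) is no longer called.

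Partners and relatives of these factors were read from lists of named genes. Among ETS and IRF factors, 6 of 10 tested genes rose and 1 fell (5 and 2 with total counts, median log2 fold change 1.33). Spic, a relative of PU.1, rose by 3.51 on the log2 scale, Etv6 by 1.79, Etv3 by 1.55, and Ets2 by 1.45. Of 9 C/EBP relatives and partners, 2 rose and 1 fell (2 and 4 with total counts, median −0.10). Batf2 and Batf, basic leucine zipper factors that pair with IRF proteins, rose by 5.43 and 3.97, and Cebpg had a log2 fold change of −0.82.

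In the MAF family 1 of 4 tested relatives rose, the small factor Mafk by 1.58 (median of the list 0.61, with 1 higher and 1 lower under total counts). Of 5 tested genes of the RUNX family and its cofactors, 2 fell and 0 rose (3 and 0 with total counts, median −0.39). The genes that fell were Cbfa2t3 and Cbfa2t2, which are not RUNX factors. Cbfa2t3, a corepressor that binds RUNX partners, had a log2 fold change of −2.97 but only 1 to 5 counts in the LPS libraries, and Cbfa2t2 one of −0.65. Class IIa histone deacetylases bind MEF2 proteins and repress their targets. Of 6 tested genes of the MEF2 family and these deacetylases, 4 fell and 0 rose with either scaling (median −1.40), with log2 fold changes of −1.88 for Hdac5, −1.48 for Hdac4, −1.41 for Mef2d, and −1.38 for Mef2a. Of the 50-nucleotide stretches of Hdac4, 21.6% also occur elsewhere.

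Of 18 other myeloid lineage factors, 8 rose and 4 fell (5 and 6 with total counts, median 0.45). Egr1, an immediate early zinc finger factor, rose by 3.11 on the log2 scale, Tfec of the MiT family by 2.76, and the lymphoid and myeloid factor Ikzf1 by 2.17. Gfi1 had a log2 fold change of 4.04 from low counts (0 to 14 with PBS, 35 to 92 with LPS). Of 16 genes of the CSF1R axis, 6 rose and 3 fell (4 and 5 with total counts, median 0.54), among them Pik3cd, a catalytic subunit of PI3K, by 2.10, the sheddase Adam17 by 1.82, the phosphatase Ptpn6 by 1.52, and the exchange factor Sos1 by 1.49.

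Other colony-stimulating factor receptors rose in 3 of 6 tested cases and fell in 0 (3 and 1 with total counts, median 0.94). They were the G-CSF receptor Csf3r at 3.85 and the beta chains Csf2rb at 2.30 and Csf2rb2 at 1.36, which share words with each other (12.3% and 18.9%). Of 7 adhesion receptors related to F4/80, 2 rose and 1 fell (2 and 2 with total counts, median −0.16), with log2 fold changes of 2.52 for Adgrg6, 2.07 for Adgrl2, and −2.79 for Adgrg1. Macrophage markers rose in 5 of 12 cases and fell in 0 (3 and 3 with total counts, median 0.62), with Fcgr1 at 3.31, Cd14 at 2.68, Msr1 at 2.05, and Mertk at 1.19. Their summed level was 19139 to 32273 CPM over all libraries. With the sets as a block the higher and lower counts for LPS against PBS were 3 and 2 for the C/EBP relatives, 7 and 2 for the ETS and IRF factors, 2 and 0 for the MAF family, 3 and 1 for the colony-stimulating factor receptors, and 3 and 2 for the adhesion receptors.

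Markers of other cells stood beside these changes as follows. Of 10 tested fibroblast and 10 tested neutrophil markers, 0 were called in either direction for LPS against PBS (medians 0.22 and 0.50), although 2 neutrophil markers were lower with total counts. In the fit with the sets as a block, which called 44.6% of all genes, 4 fibroblast markers were higher, 5 neutrophil markers were higher and 1 was lower, and 4 of 5 dendritic cell markers were higher. The summed neutrophil markers were 163, 299, and 576 CPM with PBS and 250.2, 482, and 1049 CPM with LPS, higher with LPS in each set. Dendritic cell markers were higher in 2 of 5 (median 2.75), B and T cell markers lower in 1 of 3 (0.01), mast cell markers higher in 1 of 2 (2.70), and osteoclast markers higher in 2 and lower in 1 of 6 (0.03). The summed levels ranged from 163 to 1049 CPM for neutrophil, 48.5 to 173 for dendritic cell, 9.20 to 17.7 for B and T cell, 1.05 to 69.5 for mast cell, and 77.8 to 351 for osteoclast markers. The defining markers Ly6g and Zbtb46 reached at most 1.18 and 1.32 CPM. A part of these cells in the changes of the 9 genes was not tested.

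**Figure D5:**
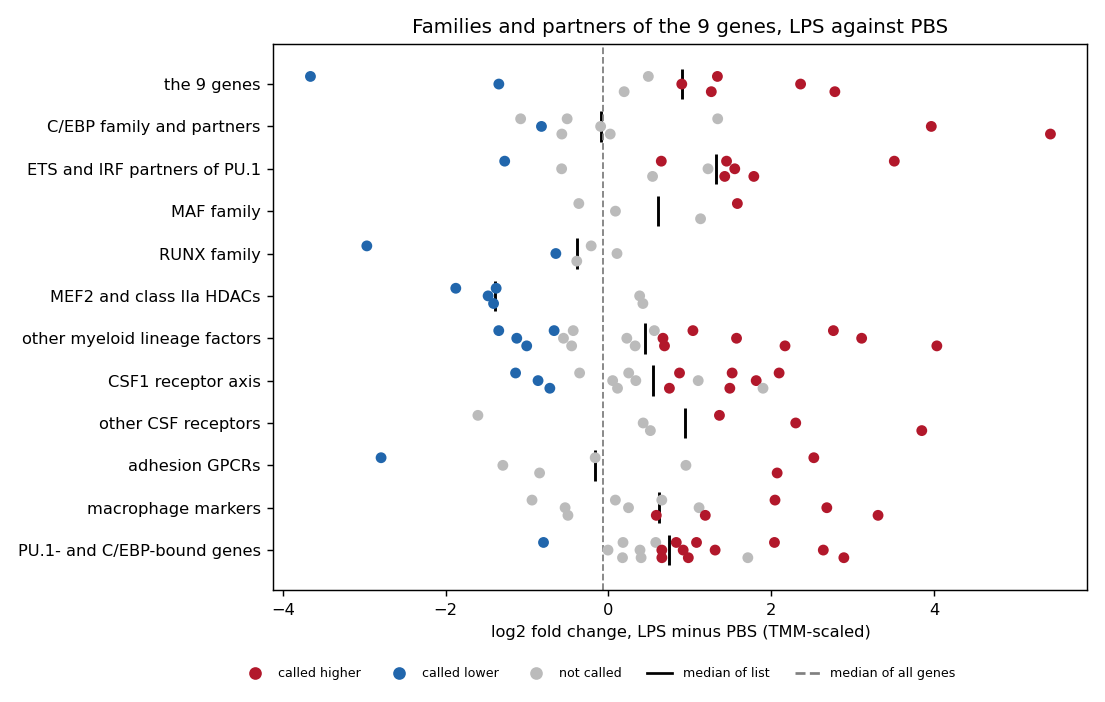
Log2 fold changes for LPS against PBS (edgeR, TMM factors) of every tested gene of the 9 genes and 11 lists, coloured where called, with a bar at the median of each list and a dashed line at the median of all genes. The median is lowest for MEF2 genes and class IIa histone deacetylases (−1.40) and highest among the lists of relatives for ETS and IRF partners (1.33), and under total counts the median of all genes moves from −0.061 to −0.71.

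3′SL alone changed none of the 9 genes past the thresholds, and the libraries of all 9 overlapped. The 3′SL libraries, in the order of the sets, held 238, 229.9, and 352 CPM of Spi1, 105, 102, and 177 of Cebpa, 11.8, 7.76, and 30.9 of Cebpb, and 12.1, 8.47, and 17.8 of Cebpd. They held 457, 511, and 316 CPM of Maf, 65.4, 59.4, and 98.7 of Runx1, 97.2, 118, and 76.8 of Mef2c, 2164, 2440, and 3552 of Csf1r, and 1350, 1498, and 2134 of Adgre1. All 9 overlapped the PBS libraries, whereas 17.5% of all genes did not overlap in this comparison.

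For 3′SL against PBS, edgeR called 0 of the 9 genes and 0% of all genes, although 1439 genes had an unadjusted p under 0.05. DESeq2 called 0.615% of all genes and the block fit 2.84%, with none of the 9 genes by either. The log2 fold changes were 0.10 for Spi1, 0.10 for Cebpa, 0.49 for Cebpb, 0.49 for Cebpd, −0.07 for Maf, 0.36 for Runx1, −0.12 for Mef2c, 0.38 for Csf1r, and 0.22 for Adgre1. The 95% interval of each included 0, and the widest, that of Cebpb, ran from −0.71 to 1.69. The lowest adjusted p of the 9 genes was that of Cebpd in the reported test (0.631, edgeR). In the block fit it was that of Csf1r (0.0183, edgeR), with a change under 1.5-fold (log2 0.37). Without HMO replicate 3, in the fit without the sets, Spi1 was at −0.17, Cebpa at −0.24, Cebpb at −0.33, Maf at 0.08, and Adgre1 at −0.04. That refit kept PBS replicate 3 of the same set. Within the sets the changes were 0.19, 0.05, and 0.07 for Spi1, 0.55, 0.19, and 0.55 for Cebpb, and 0.23, 0.11, and 0.30 for Adgre1. They were −0.02, −0.36, and 0.56 for Cebpa and 0.04, 0.15, and −0.48 for Maf.

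Adding 3′SL to LPS changed none of the 9 genes past the thresholds, and the C/EBP genes and Mef2c had the largest changes. The LPS + 3′SL libraries held 14.1, 12.1, and 18.5 CPM of Cebpa, and the second of them lay below the highest LPS library. They held 33.9, 33.4, and 53.6 CPM of Cebpb, and 37.6, 46.5, and 38.0 of Cebpd, where every value was below every LPS library. Mef2c lay at 66.7, 66.0, and 47.4 CPM, and its lowest library was below the highest LPS library. Adgre1 lay at 2788, 3147, and 3377 CPM, all below the LPS libraries.

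edgeR called 0 of the 9 genes and 0% of all genes for LPS + 3′SL against LPS, with 995 genes at an unadjusted p under 0.05. DESeq2 called 0.79%, the block fit 1.45%, and the block in DESeq2 1.98% of all genes. The log2 fold change was 0.66 for Cebpa (SE 0.26, adjusted p = 0.620), −0.61 for Cebpb (SE 0.54), −0.62 for Cebpd (SE 0.29, adjusted p = 0.741), and 0.53 for Mef2c (SE 0.19, adjusted p = 0.549, all edgeR). Within the sets it was 0.89, 0.55, and 0.56 for Cebpa, −0.68, −0.37, and −0.71 for Cebpb, −0.68, −0.53, and −0.67 for Cebpd, and 0.47, 0.59, and 0.53 for Mef2c. Each of these genes thus had the same direction in the 3 sets, as did Csf1r (0.18, 0.15, and 0.30) and Adgre1. They are named here for the size of their changes, and the share of all genes with 1 direction is not given. The block in edgeR gave adjusted p-values of 0.0677 for Cebpa and 0.0600 for Mef2c, and the block in DESeq2 called Cebpa at 0.66 (adjusted p = 0.0135), while Mef2c at 0.52 (adjusted p = 0.0173, DESeq2) was under 1.5-fold.

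For Adgre1 the log2 fold change with 3′SL under LPS was −0.21 (−0.29, −0.21, and −0.16 within the sets). The libraries did not overlap and were lower for 2 of the 9 genes, Cebpd and Adgre1, as for 6.5% of all genes, and were higher without overlap for 0 of the 9, against 6.24% of all genes. Spi1 (512, 579.9, and 704 CPM) had a log2 fold change of −0.03, Maf (704, 690.3, and 1045 CPM) of −0.04, Runx1 (66.4, 73.9, and 117 CPM) of 0.07, and Csf1r (2212, 2540, and 3562 CPM) of 0.22. All 4 overlapped the LPS libraries.

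LPS in the presence of 3′SL called 6 of the 9 genes against 3′SL alone, 4 higher and 2 lower, where 29.2% of all genes were called (14.3% higher, 14.8% lower). The log2 fold changes were 1.13 for Spi1, −3.11 for Cebpa, 1.26 for Cebpb, 1.67 for Cebpd, 0.93 for Maf, 0.20 for Runx1, −0.70 for Mef2c, 0.03 for Csf1r, and 0.90 for Adgre1. Cebpb missed the threshold in edgeR (adjusted p = 0.0978) and was called in the block fit, which called 7 of the 9 genes and 35.8% of all genes. The libraries did not overlap for 7 of the 9 genes (46.6% of all genes). With total counts 4 were called (43.4% of all genes), and Runx1 and Csf1r changed sign. Without LPS+HMO replicate 3 the count was 4, since Maf (0.71) and Mef2c were lost, and Mef2c was also lost without HMO replicate 2 (−0.53). Without HMO replicate 3 Cebpb was called at 2.05. This comparison shares no library with LPS against PBS, but each shares libraries with the comparisons of 3′SL.

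Whether the change with 3′SL differed with and without LPS was tested as an interaction. edgeR called 0 of the 9 genes and 0% of all genes, with 872 genes at an unadjusted p under 0.05, and DESeq2 called 0.342% and the block fit 1.81% of all genes. The interaction was 0.55 for Cebpa, −1.10 for Cebpb, −1.11 for Cebpd (SE 0.41), 0.65 for Mef2c (SE 0.27), and −0.44 for Adgre1 on the log2 scale, and −0.29 to 0.02 for the other 4 genes. In the fit without the sets, the Cebpb value was −0.28 without HMO replicate 3 and −1.79 without PBS replicate 3. Within the sets the Cebpb interaction was −1.23, −0.56, and −1.26. For Cebpa it was 0.92, 0.92, and −0.01 within the sets. The block in DESeq2, under which 5.1% of all genes were called, called Cebpb (−1.04, adjusted p = 0.0242), Cebpd (−1.14, adjusted p = 0.0355), and Mef2c (0.66, adjusted p = 0.0369).

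Levels of the 9 genes were ordered per kilobase of exon. With PBS, Adgre1 (439.7 ± 89.9 CPM per kilobase, SD, n = 3) and Csf1r (361 ± 78.2) led and overlapped, followed by Spi1 (94.7 ± 26.0), Maf (54.5 ± 1.33), and Cebpa (45.3 ± 4.53), which did not overlap their neighbours. Cebpb (7.98 ± 5.25) and Mef2c (6.75 ± 0.386) overlapped, and Runx1 (4.83 ± 0.779) and Cebpd (2.44 ± 1.03) were lowest. With LPS, Cebpa had fallen to 3.59 ± 1.03 CPM per kilobase, next to Mef2c at 2.65 ± 0.504, with which it overlapped, whereas Cebpb lay at 41.0 ± 15.3 and Cebpd at 16.7 ± 1.06. Adgre1 stood at 1112 ± 54.5 and Csf1r at 413 ± 82.8, and these did not overlap. The length is that of all annotated exons, so genes with many isoforms such as Mef2c and Runx1 come out lower.

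The genes whose profile over the 12 libraries was most like each of the 9 were found by the root mean square difference of centred log2 CPM. The closest were Zfp513 (0.084) and Ncf4 (0.085) for Spi1, Pald1 (0.334) and Zdhhc14 (0.353) for Cebpa, Plaur (0.258) and Alas1 (0.267) for Cebpb, and Vasp (0.228) and Junb (0.234) for Cebpd. They were Ogfrl1 (0.098) and Snx2 (0.119) for Maf, Diaph1 (0.056) and Gmeb2 (0.083) for Runx1, Fkbp4 (0.113) and Map3k4 (0.124) for Mef2c, Sec16a (0.104) and Cfp (0.120) for Csf1r, and Nadk (0.094) and Acp2 (0.112) for Adgre1. By this measure Cebpa had the most distant nearest gene and Runx1 the closest. The measure is not scaled to a gene's own spread around its mean, which was largest for Cebpa (1.73) and 0.36 for Runx1. The order is thus not one of how unusual a profile is. The profiles include the sets as well as the conditions.

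The sets left a trace in most of the 9 genes. On the TMM scale, set 3 was highest in all 4 conditions for Spi1, Cebpb, Runx1, Csf1r, and Adgre1. It was highest in 3 of 4 for Cebpa and lowest in 3 of 4 for Mef2c. With total counts Adgre1 was lowest in set 3 with LPS (2986, 2990, and 2630 CPM) and with LPS + 3′SL (2617, 2804, and 2442 CPM). Spi1 with LPS + 3′SL was then highest in set 2 (481, 517, and 509 CPM). The mean deviation of Cebpb from its condition means was −0.24, −0.54, and 0.78 on the log2 scale in sets 1, 2, and 3. For Csf1r it was −0.29, −0.07, and 0.36. The summed neutrophil markers were also highest in set 3 in each condition (333 to 1049 CPM), though with 3′SL set 2 was close (324 against 333 CPM). The same held on this scale for the summed macrophage, dendritic cell, B and T cell, and osteoclast markers, whereas fibroblast markers were highest in set 1. Set 3 had the lowest TMM factor in each condition. The part of other cells and of the scaling in these deviations was not tested.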

How the data were processed

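The RNA-Seq data held 12 libraries of BMDMs, 3 per condition, and conditions were read from the labels (3′SL is HMO there). The authors deposited raw counts of reads per gene without normalization. Per the labels, their processing notes name FastQC, Trimmomatic, STAR, HTSeq, and DESeq2, with no versions, and the genome build is not given in the sources used here. Identifiers were matched to GENCODE names on GRCm38 (42462 of 43626). The 9 genes and the gene lists were chosen with earlier results of these data known. Genes passing filterByExpr were fitted over all 12 libraries in R 4.3.3 with edgeR 4.0.16 (TMM factors, quasi-likelihood test). P-values were adjusted by Benjamini-Hochberg over 14308 genes (threshold 0.05), and a change of 1.5-fold or more was required except for the interaction. The fit was also run on simulated counts without set effects and with few changed genes. That run does not cover set effects or a shift of many genes. Replicate pairs differed by more than sampling noise (chi-square per gene at least 14.5), so each library was counted as 1 replicate. The libraries of each pair lie in different sets, so this does not show that they came from separate mice or cultures.

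Replicate numbers follow the order of the libraries. After condition means were removed, residuals correlated within the sets (mean 0.596, lowest 0.449) and not between them (−0.296 for libraries of different conditions), and the coefficient of biological variation was 0.310 without and 0.133 with the sets as a block. Alternatives were DESeq2 1.42.0, its size factors, total counts, other filters, the block, and leaving out each library. The block without 1 of 3 sets was added after the data had been seen. Named genes are the 9, up to 4 called genes of each list with the largest LPS change, defining markers, and for each of the 9 the 2 genes of most alike profile. Some genes that this rule names are not reported here.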

Additional observations from a re-analysis of the deposited data

How the results depend on the processing

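The labels give no pairing, and the replicate block rests on the library sets. Values below are log2 fold changes or counts of genes called. For LPS against PBS, 9098 genes were called with the block and total counts. Total counts gave 1535 higher and 6657 lower, against 2613 and 2889, and for LPS + 3′SL against 3′SL 1350 and 4856, against 2051 and 2120 (7422 genes with the block as well). Total counts without and with the block reversed Runx1 (−0.19, −0.19) and Csf1r (−0.47, −0.46) for LPS against PBS, and Runx1 (−0.29, −0.29) and Csf1r (−0.46, −0.45) for LPS + 3′SL against 3′SL. For 3′SL against PBS, 88 genes were called by DESeq2, 406 by the block, 365 with total counts as well, 648 by the block in DESeq2, and 2, 3, and 323 by the block without set 1, 2, or 3. Cebpa reversed to −0.0049 (total counts), −0.031 (with the block) and −0.22 (block without set 3, where Maf was 0.078 and Mef2c 0.019). For LPS + 3′SL against LPS, 1 gene was called with size factors, 1 with total counts, 113 by DESeq2, 2 with all genes, 207 by the block, 218 with total counts as well, 284 by the block in DESeq2, and 1 and 371 by the block without set 1 or 3. Of the 9 genes, 1 was called with the block and total counts (Cebpa), 1 by the block in DESeq2 (Cebpa), and 2 by the block without set 3 (Cebpa, Cebpd). Spi1 reversed to 0.055, 0.061, and 0.0015 and Maf to 0.047, 0.047, and 0.029. For the interaction, 49 genes were called by DESeq2, 259 by the block, 144 with total counts as well, 729 by the block in DESeq2, and 1 and 791 by the block without set 1 or 3. Of the 9 genes, these last fits called 3 (DESeq2) and 4 (without set 3, Cebpa, Cebpb, Cebpd, Adgre1). For LPS + 3′SL against 3′SL, the block without set 3 lost Maf (0.56), and the block with total counts called Cebpb (0.97).

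Leaving out each library gave, for 3′SL against PBS, −0.17 to 0.34 (Spi1), −0.24 to 0.24 (Cebpa), −0.33 to 1.17 (Cebpb), −0.22 to 0.076 (Maf), and −0.036 to 0.39 (Adgre1). For LPS + 3′SL against LPS it gave 0 to 8 genes, −0.16 to 0.13 (Spi1), −0.26 to 0.24 (Maf), −0.21 to 0.33 (Runx1), and −0.0023 to 0.38 (Csf1r). For LPS + 3′SL against 3′SL it gave 4 to 7 of the 9 genes, −0.083 to 0.47 (Runx1), and −0.19 to 0.28 (Csf1r). For the interaction it gave 0.37 to 0.90 (Cebpa), −1.79 to −0.28 (Cebpb), −1.51 to −0.75 (Cebpd), 0.50 to 0.81 (Mef2c), and −0.60 to −0.18 (Adgre1). The causes were not tested. With 3 libraries per condition and the sets not in the model, no change of the 9 genes with 3′SL was called.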

Other observations

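The MiT family regulates lysosome genes and osteoclast and macrophage differentiation. Mitf and Tfec were higher by 1.57 and 2.76 on the log2 scale and Tfeb had a log2 fold change of −1.35 (adjusted p = 1.57e-05, 4.21e-05, and 1.93e-05, edgeR with Benjamini-Hochberg adjustment). Tfe3 was higher by 0.67 (adjusted p = 0.0309, edgeR), but its mean with total counts was 170.8 CPM with PBS and 171.7 CPM with LPS. Mitf, Tfeb, and Tfe3 are named after their values were seen, and the family was not a list of its own. In the fit with the sets as a block, which is an alternative to the reported test, Tfeb had a log2 fold change of 0.60 for LPS + 3′SL against LPS and Hdac5 one of 0.67, both called, and Egr1 one of −1.25.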
